A study of Mus musculus with 24 samples.

Results

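Baf53b heterozygous mice and wild-type mice were compared in the dorsal hippocampus at rest, in 6 animals of each genotype taken straight from the home cage. These 12 libraries are 12 of the 24 in the series and were chosen by their labels alone. The other 12 animals, again 6 of each genotype, were killed 30 minutes after a session of object location memory training, and they serve below as another set of animals for the same genotype comparison. They also enter the estimate of the spread that all groups share, and so the p-values of the home cage comparison. Each library came from 1 numbered mouse, and both hippocampi were taken.

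BAF is a chromatin-remodelling complex that uses ATP to move nucleosomes and is built from many interchangeable subunits. When neural progenitors leave the cell cycle, several subunits are exchanged, and the actin-related protein BAF53a, encoded by Actl6a, gives way to BAF53b, encoded by Actl6b. BAF53b is therefore found in post-mitotic neurons, where BAF is known for roles in dendrite growth, synaptic function and long-term memory. The home cage comparison addresses whether a reduced dose of this subunit goes with different transcript levels in the resting hippocampus.

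The wild-type mice were labelled C57BL/6J. The heterozygotes, Baf53b+/-, were labelled as carrying 1 targeted copy of Actl6b, and their background is given as B6J.129S6-Actl6b<tm1Grc>, which names the 129S6 strain as well as B6J. Strain background as labelled thus goes with genotype in every animal of the series, and the 2 cannot be told apart in these data. Some genes had 2 separate levels among mice of the same label, as described at the end. What separates those mice was not tested. The part of Actl6b that the allele removes, the ages of the mice and the pool in which each library was sequenced are details not given in the sources used here.

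Values are RPKM, that is, read numbers corrected for gene length and sequencing depth. All differences below are Baf53b+/- minus wild type on the log2(RPKM + 0.5) scale, where a weakly expressed gene appears to change less than it does. Depth, recovered from the steps in the low values, ran from 31.5 to 46.9 M reads in the home cage libraries, with a mean of 34.5 ± 1.5 M in wild type and 37.3 ± 5.1 M in heterozygotes (SD, n = 6). A gene of 2 kb at 1 RPKM was covered by 63.0 to 93.8 reads at those depths. Y-linked transcripts exceeded Xist in 3 of 6 wild-type and 5 of 6 heterozygous home cage mice. Markers of the choroid plexus, the tissue of the brain ventricles that secretes cerebrospinal fluid, were more than 3 times the median of the 24 libraries in 1 wild-type and 2 heterozygous home cage mice. Heterozygote 2415 had the lowest summed dentate gyrus markers and the highest summed CA1 and CA3 markers of the 12, as described further on.

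Actl6b was the 1 gene that passed the test between the genotypes in the home cage. It lies on chromosome 5 at 137994783 to 138010801 (mm9). In wild type its level was 51.5 RPKM in animal 2402, 50.6 in 2404, 52.5 in 2405, 49.8 in 2418, 50.4 in 2425 and 53.0 in 2430. In heterozygotes it was 28.9 RPKM in animal 2400, 28.7 in 2401, 32.4 in 2415, 29.2 in 2417, 30.9 in 2422 and 30.0 in 2424. Every heterozygote lay far below every wild-type mouse, and the groups did not overlap. The means were 51.3 ± 1.26 and 30.0 ± 1.44 RPKM (SD, n = 6), so that heterozygotes held 58.5% of the wild-type level, with a 95% interval of 55.8% to 62.1% for the ratio on the log scale. Actl6b fell by 0.76 on the log2 scale (SE 0.04; limma, Benjamini-Hochberg adjusted p = 1.54e-12). A two-sided exact permutation test of the mean RPKM gave p = 0.00216, the smallest value that the 924 splits of 12 animals allow. The trained heterozygotes, which are other mice, held 55.7% of the level in trained wild-type mice. RPKM covers the gene as a whole, so transcripts of the targeted copy that keep some exons would still be counted. In a whole-tissue sample, fewer cells that express a gene and less RNA per cell cannot be told apart, here and in all that follows.

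Actl6a, the subunit that BAF53b replaces, showed no difference that the test could detect. Its level ran from 3.69 to 4.85 RPKM in wild type, with a median of 4.23, and from 3.81 to 4.97 in heterozygotes, with a median of 4.36. The groups overlapped over nearly their whole range, and the difference was 0.02 with a 95% interval from -0.13 to 0.16 (two-sided exact permutation p = 0.801). The summed level of Actl6a and Actl6b was 55.6 ± 1.30 RPKM in wild type and 34.3 ± 1.44 in heterozygotes (SD, n = 6). Actl6a thus made up a small part of the sum in either genotype.

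Because reads of 50 bases could be shared between 2 such close relatives, their transcripts were compared. The GENCODE M21 transcripts (GRCm38) have coding sequences of 1281 bases for Actl6b-205 on chromosome 5 and 1290 for Actl6a-201 on chromosome 3, and these were identical at 76.0% of 1281 aligned bases. The pair of 50-base stretches shown here, coding bases 1210 to 1259 of Actl6b and 1219 to 1268 of Actl6a, is the closest match between the transcripts of the 2 genes on either strand. Letters are 5′ to 3′ and capitals mark the differing bases.
Actl6b: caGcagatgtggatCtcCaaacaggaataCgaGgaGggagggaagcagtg
Actl6a: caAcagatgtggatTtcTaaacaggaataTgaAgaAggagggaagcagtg
Even here a 50-base read of one gene carries 6 mismatches to the other. The median over the 1232 coding windows of Actl6b was 12 mismatches, none had 3 or fewer, and the longest identical run was 23 bases.

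**Figure D1:**
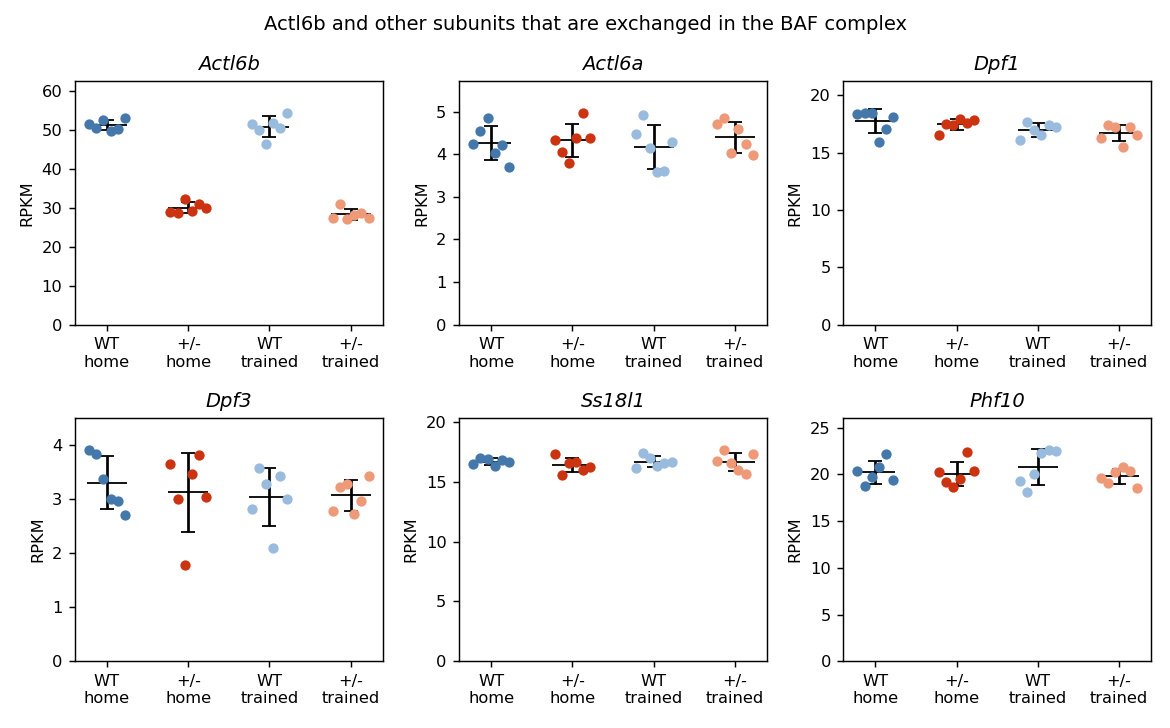
RPKM of 6 subunits that are exchanged in the BAF complex, by group; each point is 1 mouse and the bars show the mean and SD of 6 mice (WT, wild type; +/-, Baf53b+/-; home, home cage). Actl6b lies between 28.7 and 32.4 RPKM in home cage heterozygotes and between 49.8 and 53.0 in wild type, while the groups overlap in the other 5 panels.

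The plot of exchanged subunits shows the same for the rest of the neuronal set. Dpf1, which encodes BAF45b of neuronal BAF, had a median of 18.2 RPKM in wild type and 17.5 in heterozygotes, with a difference of -0.02 (95% interval -0.09 to 0.06). Dpf3, which encodes BAF45c, was the least precisely measured, at 3.29 ± 0.490 and 3.12 ± 0.734 RPKM (SD, n = 6), a difference of -0.09 with an interval from -0.35 to 0.17. Ss18l1, which encodes the neuronal subunit CREST, differed by -0.03 (interval -0.09 to 0.04). The subunits of the progenitor and ubiquitous forms were as close. Phf10, which encodes BAF45a, differed by -0.01, Dpf2 by 0.00 and Ss18 by -0.04.

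The list of shared or ubiquitous subunits, some of which are alternatives to each other, gave 0 of 21 genes past the test and 0 at an unadjusted p under 0.05, against 0.00807% and 3.52% of all genes tested. The 95% interval lay within a 1.25-fold change in either direction for each of the 21. The alternative ATPases Smarca4 and Smarca2 stood at -0.03 and -0.04. The scaffold subunits Smarcc1 and Smarcc2 stood at 0.00 and 0.02, and Arid1b, a DNA-binding subunit, at -0.07. The lowest was Actb, the actin gene that also supplies a BAF subunit, at 619 ± 18.3 RPKM in wild type and 582 ± 40.7 in heterozygotes (SD, n = 6), a difference of -0.09. The highest was Smarce1, at 0.06. The median of the 21 was 0.0032, beside 0.0048 over all genes tested.

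Genes linked to BAF53b through neurite growth in cultured neurons showed the same lack of a called difference. Of 13 listed genes, Map1b was not matched in the table and Sema3a had a mean below 1 RPKM, which leaves 11 tested. None of the 11 passed, 0 were at an unadjusted p under 0.05, and their median was -0.0044. Gap43, a protein of growth cones, ran from 53.5 to 79.9 RPKM in wild type, with a median of 59.3, and from 47.4 to 131 in heterozygotes, with a median of 65.3. Its interval, from -0.30 to 0.56, was the widest of the 11, and the high value was that of animal 2415 alone. The other 10 genes had intervals within a 1.25-fold change. Stmn2, which destabilises microtubules, differed by -0.03, and the small GTPase gene Rap1a by -0.07. The ephrin ligand genes Efna3 and Efnb3 differed by -0.04 and 0.00. Dpysl2 and Dpysl3, whose products relay growth cone collapse signals, differed by 0.02 and -0.03. Ngef, an exchange factor acting behind ephrin receptors, stood highest of the rest at 0.07. Arhgef2, Gprin1 and Ppp1r9b lay between -0.01 and 0.02.

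**Figure D2:**
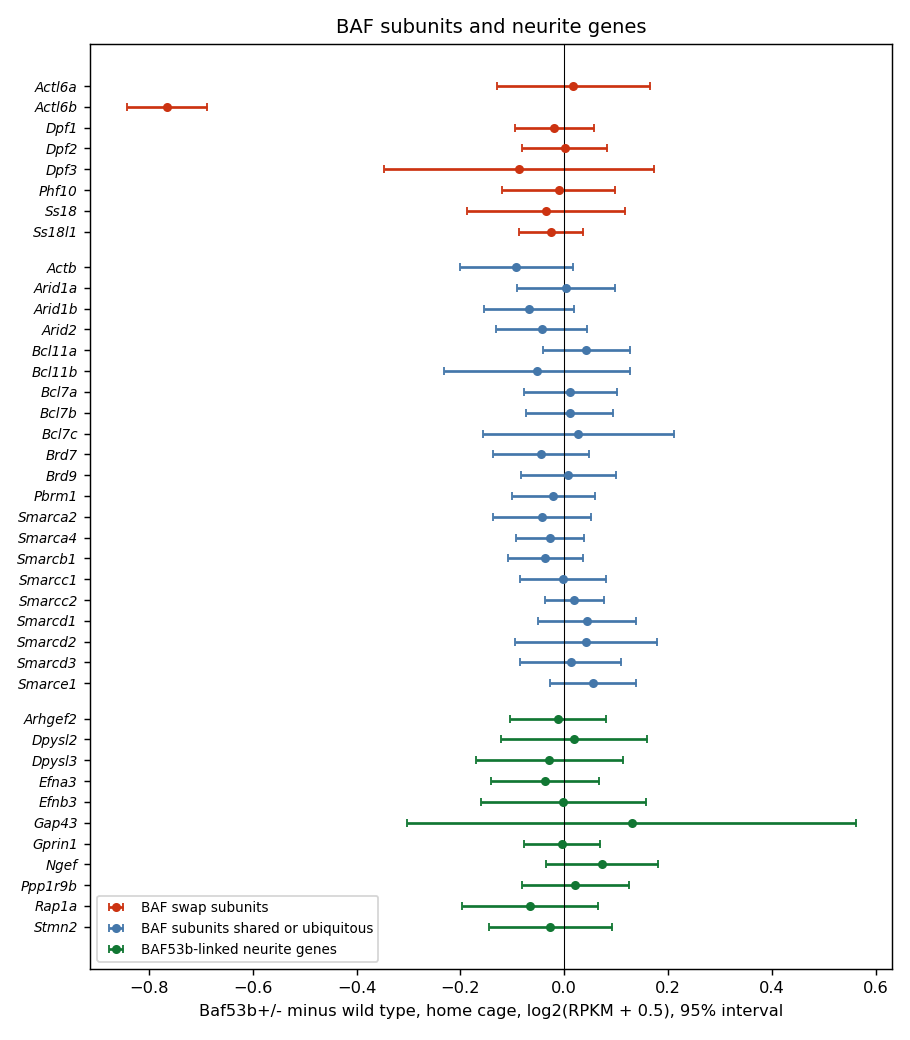
Difference of Baf53b+/- from wild-type home cage mice on the log2(RPKM + 0.5) scale for BAF subunits and BAF53b-linked neurite genes; points are limma estimates from 6 against 6 animals and bars their 95% intervals. Actl6b at -0.76 stands alone, every other interval includes 0, and that of Gap43 is the widest.

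Across the transcriptome, 12394 of 19661 genes averaged 1 RPKM or more in the 12 home cage libraries and were tested, and these hold 99.51% of the RPKM. The genes nearest to this limit were Aldh1l2 at 1.00008 and Npb inside it, and Prokr2 at 0.99994 and Tuft1 outside it. Besides Actl6b no gene passed, which is 0.00807% called in all, with 0 genes higher. At an unadjusted p under 0.05 there were 436 genes (3.52%), of which 256 (2.07%) were higher and 180 (1.45%) lower in heterozygotes. The groups did not overlap in 7 genes (0.0565%), 3 of them higher (0.0242%) and 4 lower (0.0323%) in heterozygotes. In the trained animals Actl6b was again the 1 gene called, 455 genes (3.67%) were at an unadjusted p under 0.05, and the groups did not overlap in 28 (0.226%). The difference between the genotype effects of the 2 conditions passed for 0 genes by limma, with 308 (2.49%) at an unadjusted p under 0.05.

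The differences that were measured were small. The median absolute difference was 0.036, and the median 95% interval reached 0.11 on either side of the estimate, a 1.08-fold change. The whole interval lay within a 1.25-fold change for 11227 genes (90.6%), within 1.5-fold for 12099 (97.6%) and within 2-fold for 12303 (99.3%). Precision followed expression level. The interval lay within 1.5-fold for 94.4% of genes with a mean from 1 to 5 RPKM, 98.8% of those from 5 to 20, and 99.5% of those at 20 or more.

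The estimates above 2-fold belonged to 12 genes, none of which passed, and mice of 1 genotype differed widely in each. Eif2s3y, Kdm5d and Ddx3y are Y-linked and Xist is expressed from the inactive X chromosome. Sex was read here from such transcripts, by whether the Y-linked sum exceeded Xist. That these 4 genes follow it is therefore no separate result. Ttr, the transthyretin carrier made by the choroid plexus, ran from 18.1 to 1555 RPKM in wild type, with a median of 27.3, and from 7.78 to 4572 in heterozygotes, with a median of 84.9. Clic6 and Kcne2, on the same marker list, had differences of 1.14 and 1.04, and 1500015O10Rik and C1qtnf5 had 1.02 and 1.31. Gdpd3, AA465934 and Serpina3m were lower on average in heterozygotes, with differences of -1.51, -2.08 and -1.39 and standard errors from 0.48 to 0.81.

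**Figure D3:**
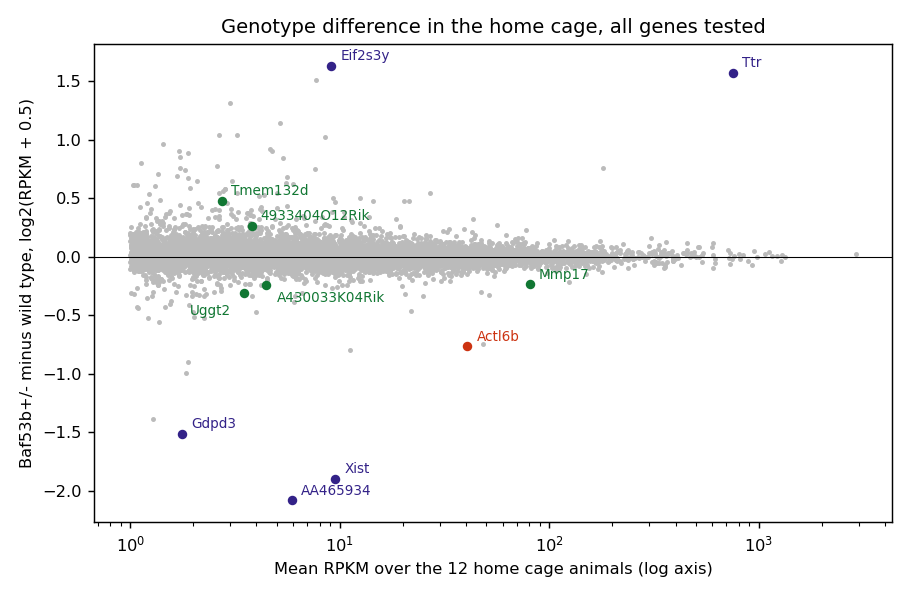
Difference between Baf53b+/- and wild-type home cage mice, on the log2(RPKM + 0.5) scale, against the mean RPKM of the 12 mice (log axis), with 1 point per gene tested. Actl6b (red) at -0.76 is the gene that passed; green marks the next 5 by p, and blue marks 5 of the 12 genes above 2-fold, which vary between animals of the same genotype.

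The next 5 genes by p are described although none passed. The first was 4933404O12Rik, an uncharacterised gene 0.60 Mb before Actl6b on chromosome 5. It ran from 3.21 to 3.63 RPKM in wild type, with a median of 3.35, and from 3.94 to 4.51 in heterozygotes, with a median of 4.21. Every heterozygote lay above every wild-type mouse. The difference was 0.27 (SE 0.05; limma, Benjamini-Hochberg adjusted p = 0.199), and in the trained animals, whose ranges overlapped, it was 0.17.

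A430033K04Rik, 1.07 Mb after Actl6b, ran from 4.47 to 5.34 RPKM in wild type, with a median of 4.77, and from 3.46 to 4.62 in heterozygotes, with a median of 3.90. Heterozygote 2400 reached into the wild-type range and the other 5 lay below it. The difference was -0.25 (SE 0.06; limma adjusted p = 0.889). In the trained animals it was -0.32, the groups did not overlap, and the limma adjusted p was 0.0501, just outside the threshold.

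Mmp17, a membrane-anchored matrix metalloproteinase gene 7.90 Mb before Actl6b, ran from 76.8 to 98.8 RPKM in wild type, with a median of 88.5, and from 70.0 to 78.7 in heterozygotes, with a median of 74.2. Only the top heterozygote, 2417, exceeded the lowest wild-type mouse, 2425. The difference was -0.24 in the home cage and -0.09 in trained animals. Tmem132d, a transmembrane protein gene 9.73 Mb before Actl6b, ran from 1.73 to 2.43 RPKM in wild type, with a median of 2.29, and from 2.59 to 3.96 in heterozygotes, with a median of 3.40, without overlap. Its difference was 0.48 (SE 0.12), and 0.25 in trained animals. Uggt2, which encodes a sensor of misfolded glycoproteins in the endoplasmic reticulum, is on chromosome 14. It ran from 3.17 to 4.45 RPKM in wild type, with a median of 3.92, and from 2.93 to 3.45 in heterozygotes, with a median of 2.98. The groups overlapped, and the difference was -0.31 at home and -0.12 after training. Mmp17, Tmem132d and Uggt2 each had a limma adjusted p of 0.999.

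Of these 5 genes, 4 lie within 15 Mb of Actl6b, a stretch that holds 2.16% of the genes tested. With Actl6b left out of the ranking, chromosome 5 supplied 6 of the first 10 genes by p, 20 of the first 50 and 24 of the first 100. Of the tested genes other than Actl6b, 6.31% lie on it. Within 15 Mb of Actl6b, leaving out Actl6b itself, 29 of 268 genes (10.8%) were at an unadjusted p under 0.05, against 3.52% of all genes. On the rest of chromosome 5 the count was 32 of 514 (6.23%), and on the other chromosomes 374 of 11611 (3.22%). By whole chromosome the share was 7.8% for chromosome 5, and the next were chromosome 11 at 5.39% and chromosome 7 at 4.23%. The labels give 129S6 in the heterozygous background only. Whether these neighbours differ with the dose of BAF53b or with 129S6 sequence around the targeted allele cannot be told apart.

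The trained animals are other mice, so the size and sign of their differences are a separate reading of the same genes. Their p-values are not, because the home cage and trained tests share the estimate of the spread of each gene. A gene with a low estimate is more likely to be under 0.05 in each test, so counts of such genes are descriptions. Of the 29 neighbours, 25 (86.2%) had the same sign in trained animals and 13 (44.8%) were also at an unadjusted p under 0.05 with that sign. For the 374 genes on other chromosomes, 225 (60.2%) had the same sign and 17 (4.55%) were under 0.05 again. For the 32 genes on the rest of chromosome 5, 26 had the same sign and 0 were under 0.05 again. Over all 268 neighbours the home cage and trained differences had a Pearson correlation of 0.498 across genes, and over the 11611 genes of other chromosomes 0.0607. By rank (Spearman) the correlations were lower, at 0.231 and 0.00048. The sign was shared by 145 of the 268 neighbours (54.1%), not far above the 49.4% of genes on other chromosomes. Genes are not independent replicates, and each correlation is a description.

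**Figure D4:**
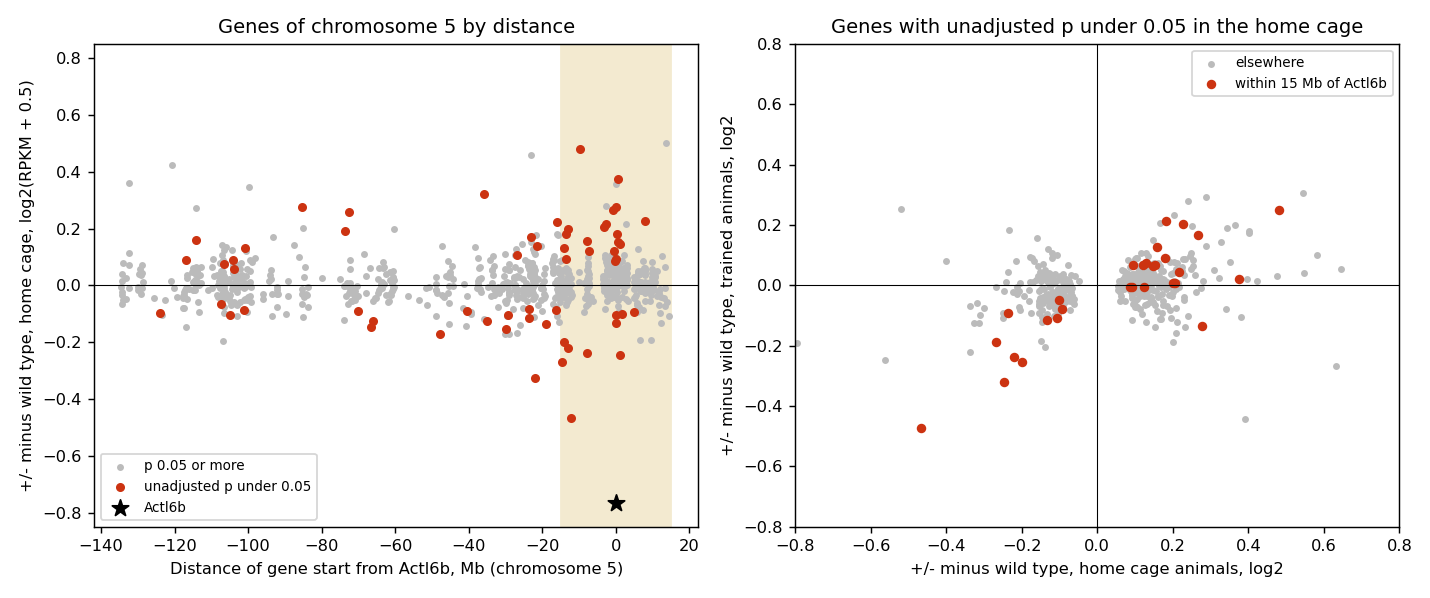
Left, home cage difference (Baf53b+/- minus wild type, log2(RPKM + 0.5)) of the tested genes of chromosome 5 against the distance of their start from that of Actl6b, with the 15 Mb on either side shaded; right, for genes at an unadjusted p under 0.05 in the home cage, the difference in trained animals against that in home cage animals, without Actl6b. Points outside the axes number 1 on the left and 4 on the right; 25 of the 29 red neighbours fall in the quadrants where the sign is shared.

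The 4 neighbours whose sign was not shared were Trfr2, Tyw1, Slc12a9 and Arl6ip4. Trfr2, a transferrin receptor gene that starts 0.0163 Mb after Actl6b, differed by 0.28 in home cage and -0.13 in trained animals, and the last 3 had trained differences near 0.

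The 13 neighbours that were at an unadjusted p under 0.05 in both sets of animals were chosen after their values were seen, and none passed in the home cage. Beside 4933404O12Rik, A430033K04Rik and Tmem132d they included Gnb2, a G protein beta subunit gene that starts 0.0254 Mb before Actl6b. Gnb2 stood at 115 ± 4.91 RPKM in wild type and 107 ± 4.40 in heterozygotes (SD, n = 6), a difference of -0.11 in each set of animals. Agfg2, an ArfGAP-family gene 0.0973 Mb after Actl6b, differed by -0.13 and -0.12, and Zcwpw1, a histone-reader gene 0.234 Mb after it, by 0.18 and 0.21. Mmd2, a membrane receptor-family gene 5.04 Mb after Actl6b, differed by -0.09 and -0.08, with every home cage heterozygote between 70.9 and 74.8 RPKM and every wild-type mouse between 76.4 and 81.4. Cpsf4, 7.93 Mb after Actl6b, encodes a subunit of the mRNA cleavage and polyadenylation factor and differed by 0.23 and 0.20, again without overlap in the home cage. Sumf2, a sulfatase-modifying factor gene, gave 0.16 and 0.13, and A930024E05Rik gave -0.27 and -0.19. Tmed2, a cargo receptor gene of the early secretory pathway, gave -0.22 and -0.24, and Diablo, whose product promotes apoptosis from mitochondria, gave -0.20 and -0.25.

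Rplp0, a gene of the ribosomal stalk that lies 22 Mb before Actl6b, varied more among the heterozygotes in the home cage. It ran from 53.5 to 62.7 RPKM in wild type, with a median of 57.0, and from 38.7 to 55.8 in heterozygotes, with a median of 43.6. Heterozygotes 2415 and 2401 stood at 52.3 and 55.8 RPKM and the other 4 between 38.7 and 44.1, so that 2401 alone reached into the wild-type range. Its difference was -0.33 in the home cage and -0.12 in trained animals. Trained mice of both genotypes varied widely, from 41.6 to 61.0 RPKM in wild type and from 40.7 to 58.8 in heterozygotes. Rplp0 has processed pseudogenes, and the counting of reads that match several places is a detail not given in the sources used here. Its level is therefore uncertain.

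The genes whose groups did not overlap, besides Actl6b, were 4933404O12Rik, Tmem132d, Mmd2 and Cpsf4 within 15 Mb, Adamts3, a procollagen-processing protease gene 47.9 Mb before Actl6b, and D2hgdh, a metabolic dehydrogenase gene on chromosome 1. Adamts3 ran from 2.98 to 3.45 RPKM in wild type, with a median of 3.14, and from 2.50 to 2.96 in heterozygotes, with a median of 2.75 and a difference of -0.17 that turned to 0.09 in trained animals. D2hgdh ran from 2.71 to 2.87 RPKM in wild type, with a median of 2.81, and from 1.73 to 2.66 in heterozygotes, with a median of 2.21. This is a difference of -0.30, and -0.07 in trained animals.

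No gene of neuronal activity passed the test between the genotypes at rest. Of 60 listed early genes, which neurons switch on when they fire, 56 were tested, 0 passed, and 28 differences were positive and 28 negative. Their median was -0.0006. Fos, a widely used activity marker, had a median of 1.90 RPKM in wild type and 1.94 in heterozygotes, and a difference of 0.01. Arc, which acts in glutamate receptor trafficking, differed by -0.04, Egr1 by -0.08, Nr4a1 by 0.00, Junb by 0.05 and Dusp1 by 0.09. Npas4, an activity-dependent transcription factor gene, was low in both groups, at 1.5 ± 0.462 and 1.2 ± 0.451 RPKM (SD, n = 6), and differed by -0.24 with an interval from -0.73 to 0.24. The 3 members at an unadjusted p under 0.05 were all lower in heterozygotes, against a background of 1.45% lower. The nuclear receptor gene Nr4a3 ran from 22.6 to 31.8 RPKM in wild type, with a median of 27.1, and from 21.8 to 26.1 in heterozygotes, with a median of 22.9, a difference of -0.22. The neurotrophin gene Bdnf ran from 9.74 to 11.01 RPKM in wild type, with a median of 9.94, and from 6.86 to 10.1 in heterozygotes, with a median of 9.26. Its difference was -0.17, and the lowest value was that of animal 2415. Ptgs2, which encodes a prostaglandin synthase and was named after its value was seen, differed by -0.21. The groups overlapped in all 3, limma gave each an adjusted p of 0.999, and in trained animals their differences were -0.02, 0.01 and -0.01.

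Synaptic genes gave no call either. For comparison, 6667 differences over all genes tested were positive (53.8%) and 5727 negative. Of 43 excitatory postsynapse genes 14 differences were positive and 29 negative, with a median of -0.026. The lowest was Grin2b, an NMDA receptor subunit gene, which ran from 16.7 to 25.3 RPKM in wild type, with a median of 22.1, and from 14.7 to 22.6 in heterozygotes, with a median of 17.9. It differed by -0.25 in the home cage and by 0.14 in trained animals. Nlgn3, a postsynaptic adhesion gene, differed by -0.09. All 43 intervals lay within 1.5-fold. Of 31 presynaptic vesicle genes 16 were positive, with a median of 0.0042, and Vamp2, the vesicle fusion protein gene, and Erc2, an active zone scaffold gene, differed by 0.12 and -0.09. Among 33 voltage-gated channel genes 24 differences were negative, with a median of -0.029. Cacna1e, a calcium channel gene, and Kcnq3, a potassium channel gene, differed by -0.12 and -0.13. Among 45 actin and spine genes 29 were negative, with a median of -0.025, and Arhgef7, an exchange factor gene for Rac-type GTPases, was at an unadjusted p under 0.05 with -0.07. In trained animals the medians of the postsynapse, channel and actin lists were 0.023, 0.016 and 0.0040, on the other side of 0.

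The lists of general cell function held 0 called genes. Of 84 tested genes of the nuclear-encoded respiratory chain, 73 (86.9%) had a positive difference, beside 53.8% of all genes tested. Their median was 0.026, and -0.012 in trained animals. Cox6a2, a cytochrome oxidase subunit gene, had the highest, 0.63. It ran from 2.21 to 7.33 RPKM in wild type, with a median of 3.85, and from 3.68 to 11.9 in heterozygotes, with a median of 6.01 and the top value in animal 2415. Ndufaf3, an assembly factor gene for complex I, differed by 0.12. Ribosomal protein genes were at 39 positive and 27 negative of 66, with a median of 0.012, and beside Rplp0 the most extreme by p was Rps15a at 0.16. The 26 chaperone genes had a median of -0.021 and the 17 glucocorticoid-responsive genes 0.020. Dnajb9, an endoplasmic reticulum chaperone gene, differed by 0.09 and Dnajb5 by -0.10. Per1, a clock gene that also responds to glucocorticoids, differed by 0.09, and Mt1, a metallothionein gene, by 0.10. Of 12 interferon-stimulated genes 9 were positive with a median of 0.042, Bst2 and Irf9 standing at 0.13 and 0.07.

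Cell type markers were used to check the tissue and its makeup. Markers of neurons and of all 3 hippocampal fields were present in every home cage library, and none of the 9 pan-neuronal, 11 CA1, 10 CA3 or 14 dentate gyrus genes was listed at 0. The 9 pan-neuronal genes summed to 2783 to 3150 RPKM in wild type and 2829 to 3220 in heterozygotes, with Eno2 at 0.04, Nefl at -0.05 and Tubb3, a neuronal tubulin gene that is also on the immature neuron list, at 0.09. Glial sums overlapped too. Those of 12 astrocyte genes ran from 1575 to 1753 and from 1601 to 1738, those of 12 microglial genes from 268 to 308 and from 265 to 322, and those of 14 oligodendrocyte genes from 1393 to 3108 and from 1910 to 2784. Aldoc and Ndrg2 of the astrocyte list differed by 0.11 and 0.10, and C1qc and Csf1r of the microglial list by 0.07 and 0.06. The medians of these lists were 0.016 and 0.024, with 9 of 12 and 8 of 12 genes positive. The oligodendrocyte list had 6 positive and 8 negative differences and a median of -0.0028, from Ugt8a at -0.09 to Mal at 0.05, with Ermn at -0.07. Endothelial and mural genes had a median of 0.012, with Slco1a4 at 0.11 and Kcnj8 at 0.10. Interneuron genes had a median of 0.040, with Pvalb and Sst at 0.12 and 0.13. The 7 tested immature neuron and proliferation genes had a median of -0.0089, with Neurod1 at -0.12. None of these genes passed the test.

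All 15 choroid plexus genes had a positive difference, with a median of 0.80, and none passed. Their summed level ran from 71.6 to 2034 RPKM in wild type, with a median of 107, and from 65.3 to 5466 in heterozygotes, with a median of 179. Wild-type animal 2425 and heterozygotes 2422 and 2424 were high, and the other 9 mice lay between 65.3 and 239. Clic6, a chloride channel family gene, and Tmem72 differed by 1.14 and 0.80. Of 11 meninges and fibroblast genes 6 differences were positive and 5 negative, with a median of 0.0067. The members with the lowest p, the growth factor system genes Igf2 and Igfbp2, differed by 0.55 and 0.48, Fmod was lowest at -0.24, and the sum of that list was highest in the same 3 animals. Without the 7 choroid-rich libraries of the series, Actl6b was still the 1 gene called.

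All 14 dentate gyrus genes had a negative difference, with a median of -0.17, and none passed. Their sum ran from 189 to 286 RPKM in wild type, with a median of 264, and from 128 to 263 in heterozygotes, with a median of 244. The low value was that of animal 2415, and without it the median was -0.021 with 8 of 14 genes negative. In trained animals the median was 0.15. Prox1, a transcription factor gene of granule cells, ran from 20.6 to 33.9 RPKM in wild type and from 13.3 to 32.1 in heterozygotes. Cdh9 and Trpc6, on the same list, differed by -0.20 and -0.22. CA1 and CA3 sums of animal 2415 were 620 and 438 RPKM, against 464 to 532 and 240 to 330 in the other 11 mice. Of the 11 CA1 genes 8 differences were positive, with a median of 0.079, and of the 10 CA3 genes 3, with a median of -0.11. The genes with the lowest p were Neurod6 at -0.10 and Mpped1 at 0.16 for CA1, and Pvrl3 at -0.21 and Coch at 0.36 for CA3. Markers of nearby regions also overlapped between the groups, the thalamus list summing to 41.6 to 62.0 RPKM in wild type and 44.7 to 62.6 in heterozygotes. The medians were 0.094 over 9 thalamus and 0.12 over 8 striatum genes, with 6 positive in each. Tcf7l2 and Ntng1 of the thalamus list differed by 0.20 and 0.19, Rgs9 and Ppp1r1b of the striatum list by 0.17 and 0.24, and the blood gene Alas2 by 0.42 at 0.873 and 1.36 RPKM. The part of marker differences in the other results was not tested, except that a model that included the choroid plexus score, and another that included sex, each called Actl6b and no other gene.

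**Figure D5:**
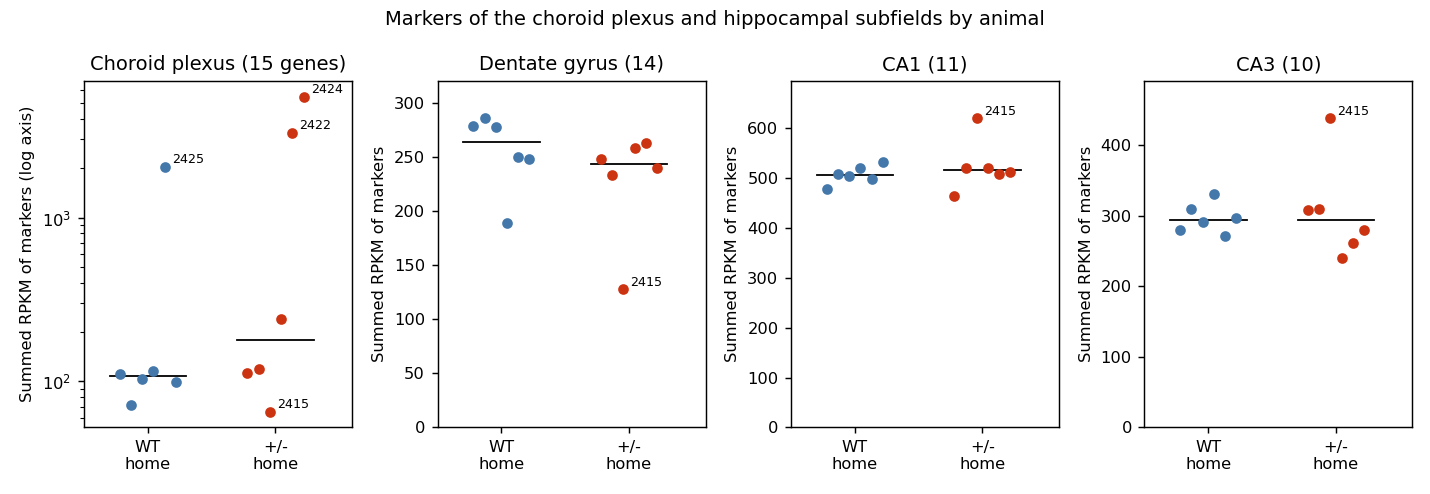
Summed RPKM of marker genes of the choroid plexus (log axis), dentate gyrus, CA1 and CA3 in each home cage mouse; points are mice, lines the group medians, and the animals named in the text are numbered. Choroid plexus sums reach 2034 RPKM in wild-type mouse 2425 and 5466 in heterozygote 2424, and heterozygote 2415 is lowest for dentate gyrus markers, at 128, and highest for CA1 and CA3.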

How the data were processed

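RNA of bilateral dorsal hippocampus was isolated on RNeasy columns, and TruSeq RNA v2 libraries, which do not keep strand, were read for 50 single-end cycles, per the labels' protocols. The submitters' processing notes name Bowtie 0.12.8, CASAVA 1.8.2 and the mm9 build. What the authors deposited is a single table of RPKM, with 1 column per animal and replicates kept apart. The annotation, the read total and the handling of reads with several matches are details not given in the sources used here. Reads of overlapping genes cannot be told apart without strand, which concerns 6330418K02Rik and Plod3 among the neighbours of Actl6b. The table holds 18 names turned into dates and 5 repeated names, which stayed as separate entries by position.

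From these values log2(RPKM + 0.5) was computed for genes that averaged 1 RPKM or more in the 12 home cage libraries. The fit used limma 3.58.1 in R 4.3.3 with 4 groups of 6 in 1 model, empirical Bayes with mean trend and robust settings, and Benjamini-Hochberg adjusted p under 0.05 over all genes. The 4 groups share 1 estimate of the spread. The same model gave the trained contrast and the interaction. The labels number the animals, so p-values measure the spread between mice, and 1 sample per mouse carries its technical error too. The pools are not given per animal, and no batch could be fitted. The script was tested on simulated data.

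Depth came from 593 single-exon genes, in which 70.4% to 79.3% of low values came within 0.05 reads of being whole at the chosen total, against a median over totals of at most 6.5%. Most genes have several exons, so reads were not recovered for a count test.

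The members and gene lists were chosen with earlier results of these data known, and no test was run over a list. Actl6b was always named, as were called genes, the next 5 by p, up to 2 genes per list by p, the exchanged BAF subunits, the neurite genes and 8 early genes. Genes outside this rule are the neighbours of Actl6b at an unadjusted p under 0.05, genes without overlap or above 2-fold, and single list members, all chosen after their values were seen. Alternatives were other pseudocounts, filters, scalings and model settings, sex or choroid plexus score as a covariate, and leaving out libraries. Sex in that fit was read from Y-linked transcripts against Xist. Choroid-rich libraries are those above 3 times the median summed marker level of 115 RPKM. A gene within the neighbour counts is not reported by name here.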

Additional observations from a re-analysis of the deposited data

Results flagged for a closer look

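Among 192 series of 6 home cage animals (named genes and marker sums in either genotype), 26 held 1 animal far from the other 5, by a gap over the range above 0.625. Chance gives about 1 in 20 such series, and the series are not independent, since many share an animal. Heterozygote 2415 accounted for 11 of them. It was low for the summed dentate gyrus markers (128 RPKM, others 234 to 263), for Cdh9 (9.23, others 13.3 to 14.2) and for Trpc6 (4.14, others 6.19 to 6.96). It was also low for Pvrl3 of the CA3 list (7.01, others 8.93 to 9.95), so not every CA3 marker followed the CA3 sum. It was high for the CA1 sum (620, others 464 to 521), the CA3 sum (438, others 240 to 310), Gap43 (131, others 47.4 to 67.2), Mpped1 (108, others 64.1 to 72.1), Ntng1 (10.5, others 5.73 to 6.54), Stmn2 (214, others 165 to 183) and Tubb3 (180, others 116 to 134).

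Wild-type animal 2425 accounted for 8. It was high for the choroid plexus sum (2034 RPKM, others 71.6 to 116), Clic6 (10.9, others 0.354 to 1.19), Tmem72 (2.62, others 0.0263 to 0.0621), Igf2 (40.6, others 12.4 to 19), Igfbp2 (27.4, others 10.7 to 14.1), Coch (3.05, others 0.985 to 1.70) and Dnajb9 (21.7, others 17.9 to 19.01), and low for Eno2 (289, others 308 to 310). Heterozygote 2424 was high for Igfbp2 (68.0, others 11.03 to 31.0) and Tcf7l2 (1.85, others 0.951 to 1.25).

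The other 5 were single cases. Wild-type animal 2404 was high for Bdnf (11.01 RPKM, others 9.74 to 10.1), 2402 low for Mt1 (244, others 291 to 316) and 2405 high for the 2 blood markers in the table (1.84, others 0.659 to 0.945). Heterozygote 2400 was low for Dpf1 (16.6, others 17.4 to 17.9) and 2401 high for Uggt2 (3.45, others 2.93 to 3.04).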

How the results depend on the processing

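The count of called genes in the home cage was 1, Actl6b, under all 11 other settings and in all 24 fits that each left out 1 library. Its difference ran from -0.79 to -0.75 in the latter and from -0.78 to -0.76 in the former. The trained difference of Actl6b ran from -0.86 to -0.81, and the interaction called 0 genes throughout. The count of genes at an unadjusted p under 0.05 was less stable than the call. It was 736 with no filter on the mean and 283 with a mean of 5 RPKM or more, against 436, and without 1 library it ran from 282 to 700: without wild-type animal 2402 it was 282, without 2418 it was 700 and without 2425 it was 665. The neighbours of Actl6b counted in it, 29 in the main fit, ran from 17 to 35 under the 11 other settings and from 21 to 31 without 1 library. The count of 17 came with a mean of 5 RPKM or more, where fewer genes were tested. The lowest adjusted p of 4933404O12Rik was 0.062, without wild-type trained animal 2421, and its adjusted p stayed above the threshold in all 34 other fits. The other named genes kept their side of the threshold in all fits. No paired analysis was possible because the replicate numbers are animal numbers that no 2 groups share. Depth limits genes near 1 RPKM most, and a difference under about 1.08-fold is smaller than the usual interval.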

Other observations

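Some genes had 2 separate levels among the 24 animals, with a gap above 0.8 on the log2 scale, at least 3 animals on either side, a gap wider than the range within each side, and a highest value of at least 1.5 RPKM. This description was chosen after the data were seen and carries no test. There were 23 such genes. The high side of 4 (Sulf1, Prlr, Col8a1 and Trpv4) was made of choroid-rich libraries, 5 were sex-linked, and 3 (Fos, Egr2 and Nr4a1) separated trained from home cage animals. The other 11 separated animals in ways that neither the labels nor these markers give.

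AA465934, on chromosome 11, was at 13.8 to 17.8 RPKM in 7 animals and at 0.452 to 2.37 in 17. The high animals were 4 of 6 wild-type and 0 of 6 heterozygous home cage mice, and 2 wild-type and 1 heterozygous trained mice. Xaf1, an apoptosis-related gene also on chromosome 11, was high in the same 7 animals, at 2.84 to 4.82 RPKM against 0.631 to 1.22. Hddc3, on chromosome 7, was high in 7 animals at 17.7 to 20.8 RPKM against 6.91 to 9.06, again with 4 wild-type and 0 heterozygous home cage mice. Gdpd3, on the same chromosome, was high in 8 animals at 2.54 to 4.14 RPKM against 0.177 to 0.517, of which 5 were wild-type and 1 heterozygous home cage mice. Wild-type home cage animals 2402, 2404 and 2405 were high for all 4 of these genes, and so were trained wild-type animal 2407 and trained heterozygote 2429.

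Serpina3n, an acute-phase protease inhibitor gene on chromosome 12, was at 70.5 to 82.1 RPKM in 7 animals and 23.4 to 30.9 in 17, and its neighbours Serpina3m and Serpina3f were high in the same 7, of which 4 were wild-type and 1 heterozygous home cage mice. Animals 2402, 2404, 2405, 2407 and 2429, named above for the genes of chromosomes 7 and 11, were again among the 7 high animals. In the 17 low animals Serpina3m was at 0 to 0.0376 RPKM. Whether reads are shared among these family members was not tested, so the separate level of each is uncertain. Wdfy1, on chromosome 1, went the other way, with 3 heterozygous and 0 wild-type home cage mice high, at 5.62 to 6.38 RPKM against 2.06 to 2.74. Stbd1, which lies on chromosome 5 at 45.0 Mb before Actl6b, was high in 1 wild-type and 4 heterozygous home cage mice, at 2.34 to 3.10 RPKM against 0.357 to 0.720. Gm5506 and 1500015A07Rik, both on chromosome 18, were high in 16 and 15 animals of all 4 groups. What separates these animals was not tested.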
